A study of Rattus norvegicus with 30 samples.

Results

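Rat liver was profiled for miRNAs 12 h after partial hepatectomy and compared with liver labelled 0 h after the same operation. The comparison held 6 of the 30 arrays in the series, 3 at 12 h and 3 at 0 h, chosen by the time in the sample labels, and all 388 rat miRNA names on the chip, 58 of them star strands (the less abundant strand of a precursor). All animals compared were male Wistar rats (no genetic modification or age is named in the labels), with 70% of the liver removed by the method of Higgins and Anderson. The 0 h livers carry the hepatectomy label too, and the labels do not say whether they are the tissue removed at the operation. The other arrays of the series were hepatectomy at 2, 6, 24 and 48 h and 5 d and sham laparotomy at 12, 24 and 48 h. Each group held 3 arrays, labelled biological replicates.

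After removal of most of its mass, the rat liver regrows because its remaining, normally quiescent hepatocytes enter the cell cycle. At 12 h these hepatocytes are in the prereplicative phase, before the main wave of DNA synthesis. miRNAs are short RNAs that pair, chiefly through bases 2 to 8 (the seed), with messenger RNAs and lower their translation and stability. Several families that restrain growth, among them let-7 and miR-26, are abundant in adult liver, and miR-122 is the most abundant miRNA of hepatocytes.

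The mature sequences of the miRNAs on which the comparison turned are shown first. Relatives on the chip are added for let-7, miR-100, miR-125a-5p and miR-26a only, because family members share a seed and differ by few bases. Sequences are those of RefSeq (GRCr8), 5′ to 3′, with the seed in capitals. Of 20 names looked up, 19 matched, and miR-99a is named only. For chip names without a suffix the arm was taken as the one these names usually denote.
let-7a: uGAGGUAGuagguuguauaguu
let-7b: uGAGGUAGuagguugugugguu
let-7c: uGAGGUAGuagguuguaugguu
let-7d: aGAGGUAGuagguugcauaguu
let-7e: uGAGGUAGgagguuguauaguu
let-7f: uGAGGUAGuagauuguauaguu
let-7i: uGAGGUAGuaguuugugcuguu
miR-98: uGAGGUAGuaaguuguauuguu
miR-100: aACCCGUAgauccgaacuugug
miR-99b: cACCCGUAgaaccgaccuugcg
miR-125a-5p: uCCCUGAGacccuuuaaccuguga
miR-125b-5p: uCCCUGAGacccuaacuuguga
miR-26a: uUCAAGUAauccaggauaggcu
miR-26b: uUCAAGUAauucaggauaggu
miR-532-3p: cCUCCCACacccaaggcuugca
miR-146a: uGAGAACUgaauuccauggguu
miR-142-5p: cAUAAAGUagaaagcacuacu
miR-204*: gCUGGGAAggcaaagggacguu
Counting from 1 at the 5′ end of let-7a, let-7f differs by G12A, let-7c by A19G and let-7e by U9G. miR-26b differs from miR-26a by C11U and C21U over 21 compared bases. The sources do not say how well the chip's probes separate such relatives, so a change of one let-7 name cannot be told apart from signal shared with another.

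Levels are normalized log2 intensities, made comparable between arrays by quantile normalization, and a difference is 12 h minus 0 h on that scale. Of 388 names, 11 passed the threshold (limma, Benjamini-Hochberg adjusted p under 0.05), which is 2.84% of all names. Of these, 9 fell (2.32%) and 2 rose (0.515%). The falls were let-7f, let-7c, let-7a, miR-100, miR-125a-5p, miR-26a, miR-532-3p, miR-483 and miR-146a, and the rises were miR-142-5p and miR-204*. At an unadjusted p under 0.05 there were 73 names, or 18.8%. The 3 arrays at 12 h did not overlap the 3 at 0 h for 98 names (25.3%), 60 of them higher (15.5%) and 38 lower (9.79%). The median difference of all names was 0.05. In bulk liver, fewer cells of a type and less of a miRNA per cell cannot be told apart.

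The count of 11 depended on single arrays and on the scaling. It was 1 without replicate 1 at 0 h, 16 without replicate 2 and 5 without replicate 3. It was 17, 2 and 4 without replicates 1, 2 and 3 at 12 h. let-7f passed in each of these 6 fits. With no normalization between arrays, 0 names passed (limma, with 50 at an unadjusted p under 0.05) and the median difference of all names was 0.45, so the falls below are relative to the other miRNAs of the same array. The size of each change moved by more than 1.5 times with the processing: let-7f ranged from -2.997 with the authors' processed values to -0.69 with no background correction, miR-483 from -3.37 to -0.48, miR-26a from -2.24 to -0.74 and miR-142-5p from 1.42 to 0.20.

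**Figure D1:**
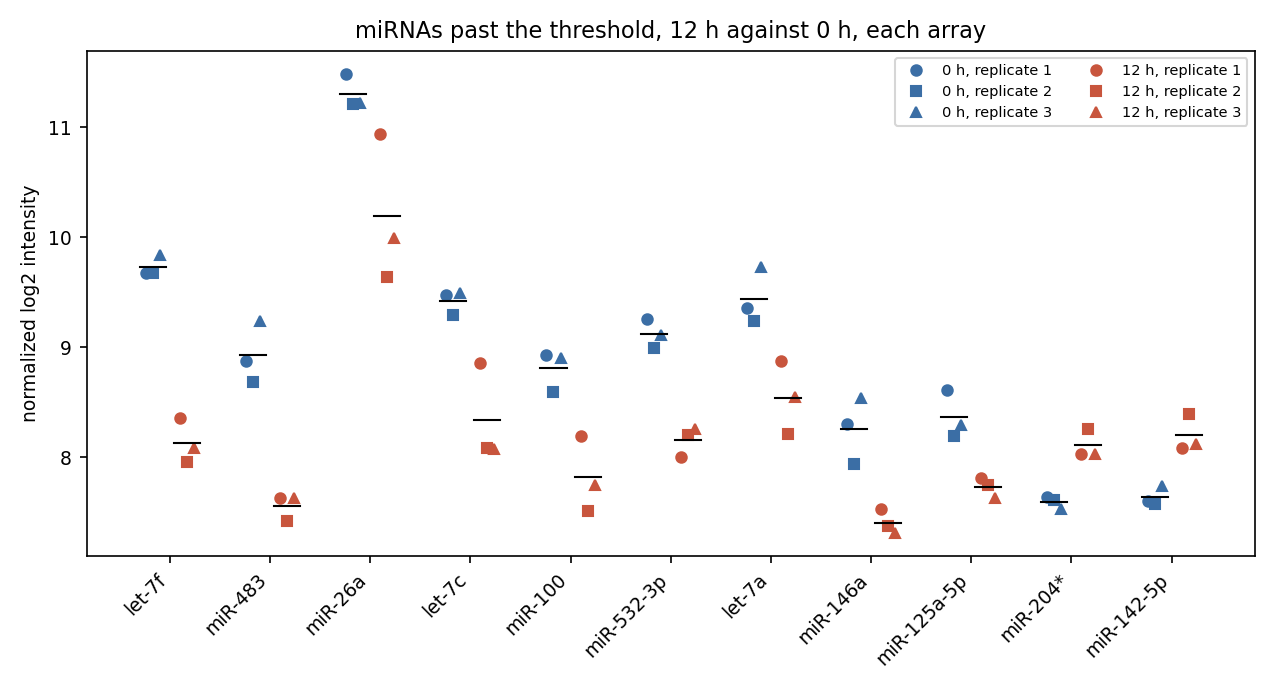
Normalized log2 intensity (vertical axis) of the 11 miRNAs past the threshold on each array at 0 h (blue) and 12 h (red), with marker shapes for the replicate numbers and a black bar for each group's mean. The groups do not overlap for any of them. Replicate 1 at 12 h lies nearest to the 0 h arrays for most of them, most clearly for miR-26a, let-7c, let-7a and miR-100. It does not for miR-532-3p and miR-204*.

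let-7, the family that represses Ras, Myc and Hmga2, supplied 3 of the 9 falls, 3 of its 8 measured names where 2.32% of all names fell. let-7f was at 9.67, 9.67 and 9.84 on the 0 h arrays and at 8.36, 7.96 and 8.08 on the 12 h arrays. All 12 h arrays lay more than a log2 unit below all 0 h arrays. The fall was by 1.60 (SE 0.28, 95% interval -2.18 to -1.01, limma adjusted p = 0.00597), or 3.02-fold.

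let-7c was at 9.47, 9.29 and 9.49 at 0 h and at 8.86, 8.09 and 8.08 at 12 h. Replicates 2 and 3 at 12 h lay together and replicate 1 stood between them and the 0 h arrays. It fell by 1.08 (SE 0.24, limma adjusted p = 0.0179). let-7a was at 9.35, 9.24 and 9.73 at 0 h and at 8.87, 8.21 and 8.55 at 12 h, with the same array nearest to 0 h. It fell by 0.90 (SE 0.23, limma adjusted p = 0.0376).

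The other 5 names with the let-7 seed did not pass, and all had negative differences, except miR-98 with no normalization (0.18). Of all 388 names, 163 had a negative difference. let-7e was at -0.87 (adjusted p = 0.0712, limma), let-7d at -0.74 (0.0862), let-7b at -0.63 (0.151), let-7i at -0.50 (0.200) and miR-98 at -0.13 (0.820). let-7e, let-7d and let-7i did not overlap between groups, whereas let-7b and miR-98 did. miR-98 was between 7.11 and 7.18 at 0 h and between 6.95 and 7.11 at 12 h, with an authors' background-subtracted intensity of -40 to 32 over the 6 arrays, that is, at background. The median difference over the family was -0.81, against 0.05 for all names, and it was -0.56, -0.94 and -0.90 on replicates 1, 2 and 3 at 12 h, each taken against the 0 h mean.

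Several of these miRNAs are encoded beside one another in the rat genome. let-7a-2 lies within 10000 bases of miR-100, let-7c-1 of miR-99a, and let-7e of miR-99b and miR-125a inside Spaca6. The list of relatives of miR-100, which represses mTOR, and of miR-125, the counterpart of worm lin-4, had 2 of 9 measured members past the threshold, both lower, where 2.32% of all names were. miR-100 was at 8.93, 8.59 and 8.91 at 0 h and at 8.20, 7.51 and 7.75 at 12 h. The lowest 0 h array lay above the highest 12 h array. miR-100 fell by 0.99 (SE 0.19, limma adjusted p = 0.00642), or 1.98-fold.

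miR-125a-5p, which represses the ErbB receptors in human cells, was at 8.61, 8.19 and 8.30 at 0 h and at 7.81, 7.75 and 7.64 at 12 h. It fell by 0.63 (SE 0.13, limma adjusted p = 0.0124), and the 12 h arrays lay close together (SD 0.09). miR-99a and miR-125b-5p did not overlap between groups but did not pass, at -0.64 (adjusted p = 0.108, limma) and -0.75 (0.123). For both, replicate 1 at 12 h was near the 0 h arrays: miR-125b-5p was at 9.91 there and at 8.75 and 9.35 on the other 12 h arrays, against 10.02 to 10.16 at 0 h. miR-99b, the neighbour of miR-125a with the seed of miR-100, was at 0.18 (95% interval -0.13 to 0.48). The interval includes 0, so the sign of miR-99b, unlike that of miR-125a-5p, is not settled.

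miR-26a, a repressor of D and E type cyclins and of the chromatin enzyme Ezh2, was at 11.48, 11.21 and 11.22 at 0 h and at 10.94, 9.64 and 9.996 at 12 h. The 12 h arrays spread widely (SD 0.67 against 0.16 at 0 h), with replicate 1 only slightly below the 0 h range. It fell by 1.11 (SE 0.28, limma adjusted p = 0.0324), or 2.16-fold. miR-26b, which has the same seed and is encoded in Ctdsp1 where miR-26a is encoded in Ctdspl, was at 8.20, 7.87 and 8.61 at 0 h and at 7.48, 7.69 and 7.40 at 12 h. Its groups did not overlap, and its difference of -0.71 did not pass (adjusted p = 0.0862, limma).

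miR-483 and miR-532-3p lie in introns of protein-coding genes. miR-483, inside the growth factor gene Igf2, was at 8.87, 8.69 and 9.23 at 0 h and at 7.63, 7.42 and 7.63 at 12 h. It fell by 1.37 (SE 0.33, limma adjusted p = 0.0267), or 2.59-fold. The authors' background-subtracted intensity of miR-483 at 12 h was 80 to 120, below the median name (112 to 208) on each array. This limits what its fold and its spread at 12 h can show. miR-675, made from the neighbouring imprinted gene H19, was at -0.04 (95% interval -0.33 to 0.25). Its authors' background-subtracted intensity was low, 0 to 64 at 0 h and 64 to 112 at 12 h.

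miR-532-3p, inside the chloride transporter gene Clcn5, was at 9.26, 8.99 and 9.11 at 0 h and at 8.003, 8.20 and 8.26 at 12 h. It fell by 0.97 (SE 0.19, limma adjusted p = 0.00642), with both groups tight (SD 0.13 in each). The other 5 measured names from the same intron did not pass and lay between -0.21 and 0.18. Among them, miR-532-5p, the other arm of the same precursor, was at 0.17 (95% interval -0.14 to 0.48). Its authors' background-subtracted intensity was -24 to 56 at 0 h, near background, and 80 to 184 at 12 h. Thus 1 of 6 Clcn5 names changed, against 2.84% of all names, and the 2 arms of 1 hairpin stood on opposite sides of 0, the 5p arm without passing the test.

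Of the miRNAs linked to immune cells, 6 were measured, 1 fell, 1 rose and 4 did not pass, where 2.32% of all names fell and 0.515% rose. miR-146a, which dampens Toll-like receptor signalling through Traf6 and Irak1, was at 8.30, 7.94 and 8.54 at 0 h and at 7.53, 7.38 and 7.31 at 12 h. It fell by 0.85 (SE 0.19, limma adjusted p = 0.0179). The authors' background-subtracted intensity of miR-146a at 12 h was low, 80 to 112, against 112 to 208 for the median name. miR-146b, also among the 6, did not pass, at 7.40, 7.57 and 7.55 at 0 h and at 7.67, 7.50 and 7.67 at 12 h. miR-142-5p, a miRNA of blood cells, annotated within Tspoap1 in RefSeq, was at 7.61, 7.58 and 7.74 at 0 h and at 8.09, 8.39 and 8.12 at 12 h. It rose by 0.56 (SE 0.14, limma adjusted p = 0.0376), or 1.48-fold. The authors' background-subtracted intensity of miR-142-5p at 0 h was low, 16 to 88, against 40 to 64 for the median name.

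The other arm of the same precursor, miR-142-3p, was at 7.40, 7.57 and 7.30 at 0 h and at 7.24, 7.12 and 7.17 at 12 h, a difference of -0.25 that did not pass (adjusted p = 0.665, limma). Its authors' background-subtracted intensity was -16 to 48 over the 6 arrays, near background, so the 2 arms can hardly be compared. miR-223, the miRNA of neutrophils, was at 7.63, 7.66 and 8.74 at 0 h and at 7.34, 7.32 and 7.19 at 12 h. Its groups did not overlap, but replicate 3 at 0 h carried most of the difference of -0.73 (adjusted p = 0.0991, limma). The sum of the 6 immune names, in normalized linear intensity, was 1248 to 1655 on the 0 h arrays and 1139 to 1265 on the 12 h arrays. The marker lists of erythroid cells (395 to 431 at 0 h, 379 to 444 at 12 h) and of endothelial and mesenchymal cells (2778 to 4348 and 2166 to 3215) had no member past limma's threshold. A part of cell composition in the changes above was not tested.

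miR-204*, the second rise, is the minor strand of a precursor in an intron of Trpm3. It was at 7.64, 7.62 and 7.54 at 0 h and at 8.04, 8.26 and 8.04 at 12 h. It rose by 0.51 (SE 0.13, limma adjusted p = 0.0384), or 1.43-fold. The major strand, miR-204, was at -0.03 (95% interval -0.44 to 0.38). miR-204* was the only 1 of the 58 star strands past the threshold, and their median difference was 0.08 (-0.08 with 75th percentile centring).

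**Figure D2:**
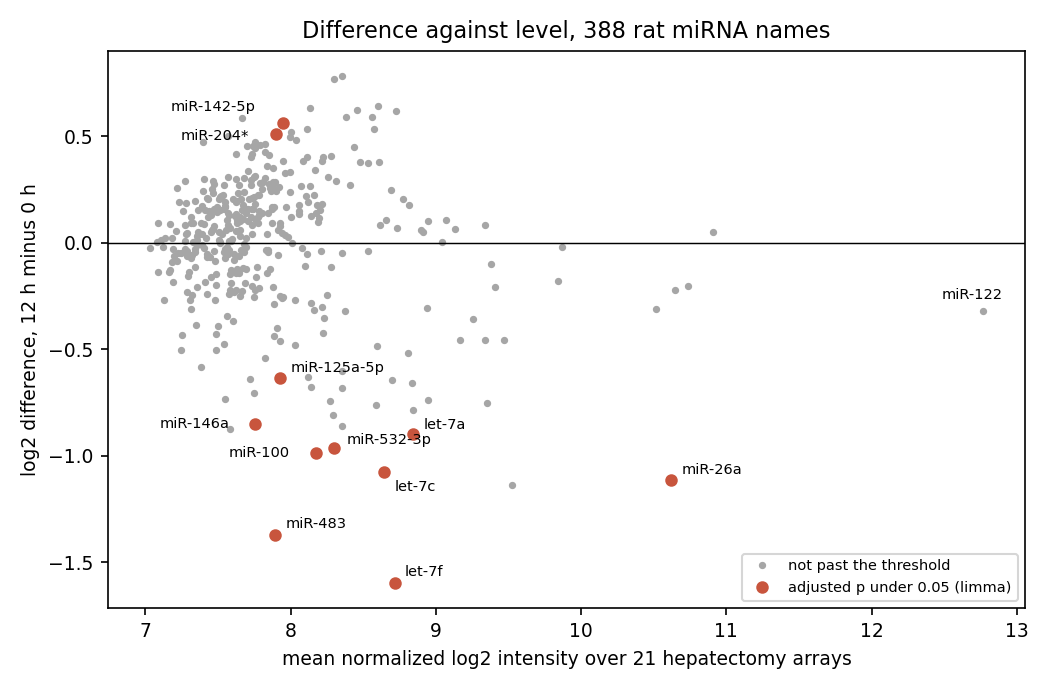
Each of the 388 names by its mean normalized log2 intensity over the 21 hepatectomy arrays (horizontal axis) and its log2 difference, 12 h minus 0 h (vertical axis), with the 11 past the threshold in red. The 9 falls lie between -0.63 and -1.60, the 2 rises at 0.51 and 0.56, and miR-122, at the far right, at -0.32.

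The changes were found among the brighter names. When the 388 names were divided into 4 equal groups by mean level, the brightest held 6 falls and no rise. The second held 3 falls and both rises, and the dimmer groups held no call, with limma's threshold. In the brightest group 13 of 97 names were lower without overlap and 23 were higher, and in the dimmest the counts were 8 and 3. A probe's brightness is not a measure of the amount of its miRNA, so levels of different miRNAs are not compared.

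Rises of similar size were seen for names that did not pass. miR-20b-3p, the minor arm of a member of the miR-17 family, was at 7.88, 7.92 and 8.03 at 0 h and at 8.93, 8.75 and 8.51 at 12 h, a difference of 0.78 (SE 0.25, limma adjusted p = 0.0862). miR-759 was at 7.88, 7.82 and 7.81 at 0 h and at 8.49, 8.94 and 8.39 at 12 h, a difference of 0.77 (SE 0.25, limma adjusted p = 0.0862). Both had 12 h arrays wholly above the 0 h arrays.

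Further differences of this kind were 0.64 for miR-17-3p, 0.63 for miR-21*, 0.62 for miR-878 and let-7i*, 0.59 for miR-301a and miR-761, and 0.53 for miR-301b. Their adjusted p values were 0.131 to 0.373 (limma). miR-21* was at 7.80, 7.87 and 7.78 at 0 h and at 8.46, 8.53 and 8.36 at 12 h. All 9 of these names passed when only the 6 arrays compared were fitted, without the spread of the other times (adjusted p 0.0132 to 0.0456, limma). They were chosen as large rises without overlap on these same arrays, so their passing is not separate support. That fit called 28 of the 388 names, 12 higher and 16 lower.

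Among falls that did not pass, miR-126, made from the endothelial gene Egfl7, had the largest difference, -1.14 (SE 0.36, limma adjusted p = 0.0862). It was at 10.01, 9.86 and 10.64 at 0 h and at 9.69, 8.48 and 8.91 at 12 h. Again replicate 1 at 12 h stood nearest to 0 h, and without it miR-126 was at -1.47 (adjusted p = 0.0277, limma). Leaving out the nearest array had to enlarge the difference, so that pass is not separate support. Without any other single array miR-126 did not pass (adjusted p 0.0791 to 0.361, limma). miR-378, encoded in the mitochondrial regulator gene Ppargc1b, was at 8.92, 8.33 and 9.22 at 0 h and at 8.32, 7.83 and 7.89 at 12 h, a difference of -0.81 (SE 0.28, limma adjusted p = 0.105).

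**Figure D3:**
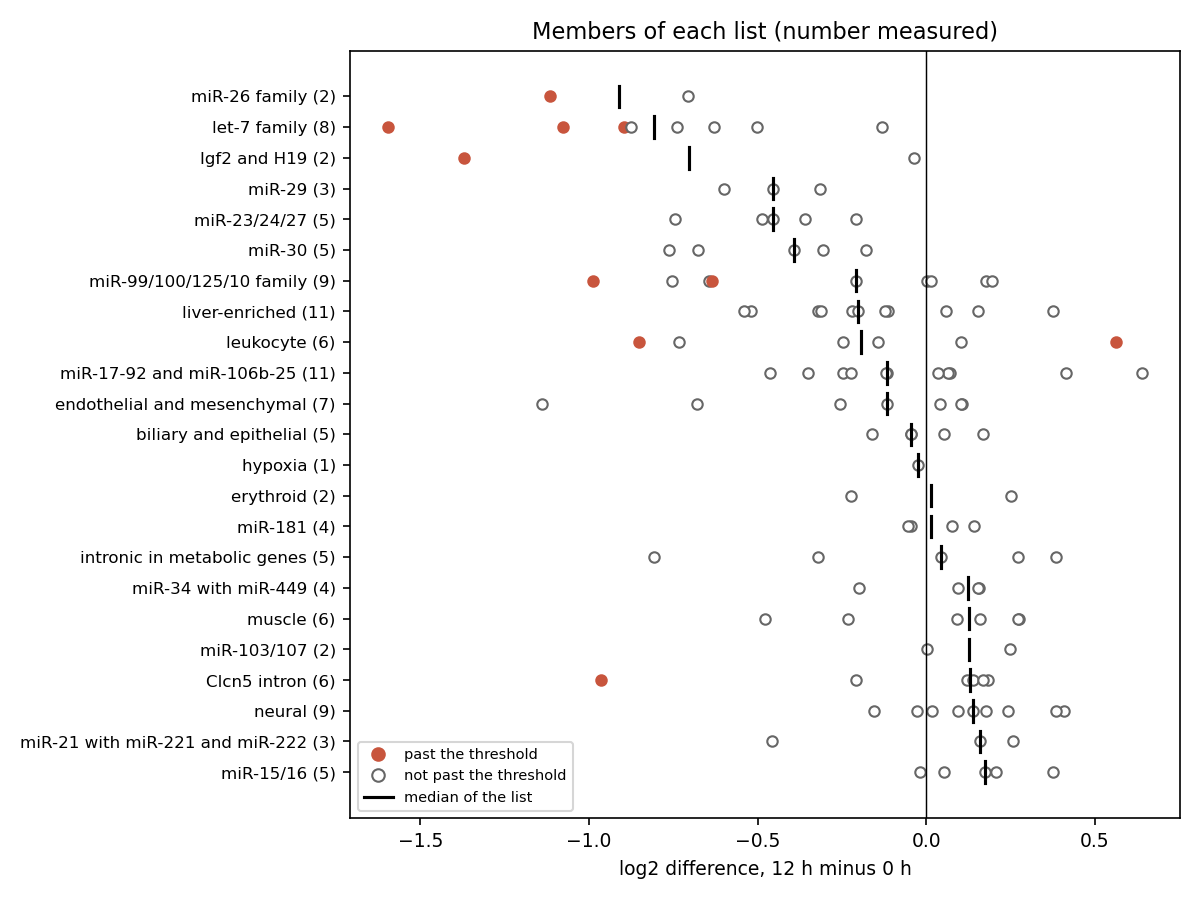
Log2 difference, 12 h minus 0 h (horizontal axis), of every measured member of 23 miRNA lists less the star strands, ordered by list median (black bars), with filled points past limma's threshold. The let-7 and miR-26 members all lie below 0 (miR-98 above 0 with no normalization), with medians of -0.81 and -0.91, while most lists straddle 0.

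Hepatocyte miRNAs showed no call. miR-122, the defining miRNA of hepatocytes, was measured far above background on all 6 arrays (authors' background-subtracted intensity 5746 to 43442). It was at 13.33, 12.92 and 13.37 at 0 h and at 12.75, 12.92 and 12.99 at 12 h. The groups overlapped and the interval of the difference, -1.49 to 0.85, was wide. miR-192 and miR-194, which are encoded side by side, were at -0.31 (adjusted p = 0.710, limma) and -0.22 (0.882). miR-365 had the largest difference of the 11 liver-enriched names, -0.54 (adjusted p = 0.0875, limma), with 12 h arrays wholly below those at 0 h. Over the 11, 8 differences were negative, where 163 of all 388 names were. The median was -0.20, which turned to 0.22 with signal span (defined below) as a covariate.

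In other growth-linked lists no member passed limma's threshold. For the signs below, 163 of all 388 names had a negative difference, and members of a list share the same arrays and are not independent. The miR-30 list had 5 of 5 differences below 0 (median -0.39, but 0.00 with no normalization), with miR-30d at -0.76 and miR-30a at -0.68 (both adjusted p = 0.108). The miR-23/24/27 list had 5 of 5 below 0 (median -0.45), with miR-27a, encoded with miR-23a and miR-24, at -0.74 (0.107). The miR-29 list, which represses collagens, had 3 of 3 below 0 (median -0.46), with miR-29c at -0.60 (0.0991). On replicate 1 at 12 h these medians were -0.12, 0.08 and -0.07 against the 0 h mean, and on replicate 2 they were -0.81, -0.87 and -0.74. The lower medians of the 3 lists therefore rested on replicates 2 and 3 at 12 h.

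The cell cycle and growth miRNAs best known from regenerating liver did not pass the test. miR-21, which represses Pdcd4, was at 9.18, 9.18 and 10.27 at 0 h and at 9.23, 8.54 and 9.49 at 12 h, a difference of -0.46 (95% interval -1.42 to 0.51). Its groups overlapped, and its star strand, above, had the opposite sign. miR-221 and miR-222, which repress the cell cycle inhibitor p27, were at 0.16 (-0.15 to 0.47) and 0.26 (-0.16 to 0.68). The miR-222 groups did not overlap, with 7.59 to 7.79 at 0 h and 7.82 to 8.21 at 12 h.

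miR-17-5p, of the Myc-induced miR-17-92 cluster, was at -0.35 (95% interval -0.82 to 0.12), while miR-17-3p from the same hairpin was at 0.64. The 11 names of the miR-17-92 and miR-106b-25 clusters had a median of -0.12, which was 0.29 with no normalization. miR-16, which represses D and E cyclins, was at 0.05 (-0.88 to 0.98) and miR-34a, a p53 target, at -0.20 (-0.52 to 0.12). miR-1, a muscle miRNA, had a mean level of 7.42 (SD 0.32, n = 3) at 0 h and of 7.58 (SD 0.20) at 12 h, and its groups overlapped.

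The authors' deposited background-subtracted intensities, which are not scaled between arrays, gave a further view of the calls. let-7f was at 584, 504 and 1152 at 0 h and at 256, 168 and 208 at 12 h. let-7c (536, 480 and 872 against 312, 280 and 204) and miR-483 (232, 200 and 552 against 80, 120 and 80) were also lower on every 12 h array. miR-142-5p was higher on every 12 h array, at 200, 416 and 240 against 64, 16 and 88. So were the median name (below) and uncalled names such as miR-103, miR-19a and miR-221, so a rise on this unscaled measure is not particular to miR-142-5p. The share of all names without overlap on this scale was not counted.

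The other 6 falls overlapped on that scale. miR-26a was at 3457, 1825 and 6098 at 0 h and at 1833, 904.5 and 913 at 12 h, where 1 array of each group overlapped. miR-532-3p was at 408, 288 and 456 against 128, 352 and 272. let-7a was at 296, 336 and 1128 against 512, 360 and 280. miR-125a-5p, at 176, 100 and 184 against 120, 208 and 176, showed no lower level at 12 h on this scale. miR-204* has no value there. The median name was at 64, 40 and 64 at 0 h and at 112, 208 and 144 at 12 h.

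The arrays differed in ways that the groups did not explain. Replicate 3 at 0 h and replicate 1 at 12 h had a raw median intensity of 544 each, and the other 4 had 1080 to 1168. Among the 4 brighter arrays (2 against 2), the falls were between -0.71 and -1.65, and the rises were 0.67 and 0.52. Between the 2 dimmer arrays the 9 falls were between -0.29 (miR-26a) and -1.60 (miR-483), and the rises were 0.35 and 0.50. The directions could not differ between these sets, because the 0 h and 12 h arrays do not overlap for any of the 11. Only the sizes are informative here. With brightness as a block, 27 names passed, 7 higher and 20 lower, with all 11 of the calls among them.

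The signal span is the distance, in log2 units, from the median signal of an array up to its 95th percentile. It averaged 1.89 at 0 h (SD 0.44, n = 3) and 1.37 at 12 h (SD 0.22). By an exact two-sided permutation test, which cannot go below 0.1 here, the difference of -0.52 reached p = 0.2. With span as a covariate 62 names passed, 37 higher and 25 lower, and all 11 calls were among them. The split of rises and falls thus moved with the span. Across the 388 names, replicate 1 at 12 h correlated with 0 h replicates 1, 2 and 3 at 0.909, 0.907 and 0.857, as a description. Replicate 2 did so at 0.802, 0.808 and 0.731, and replicate 3 at 0.854, 0.863 and 0.811.

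**Figure D4:**
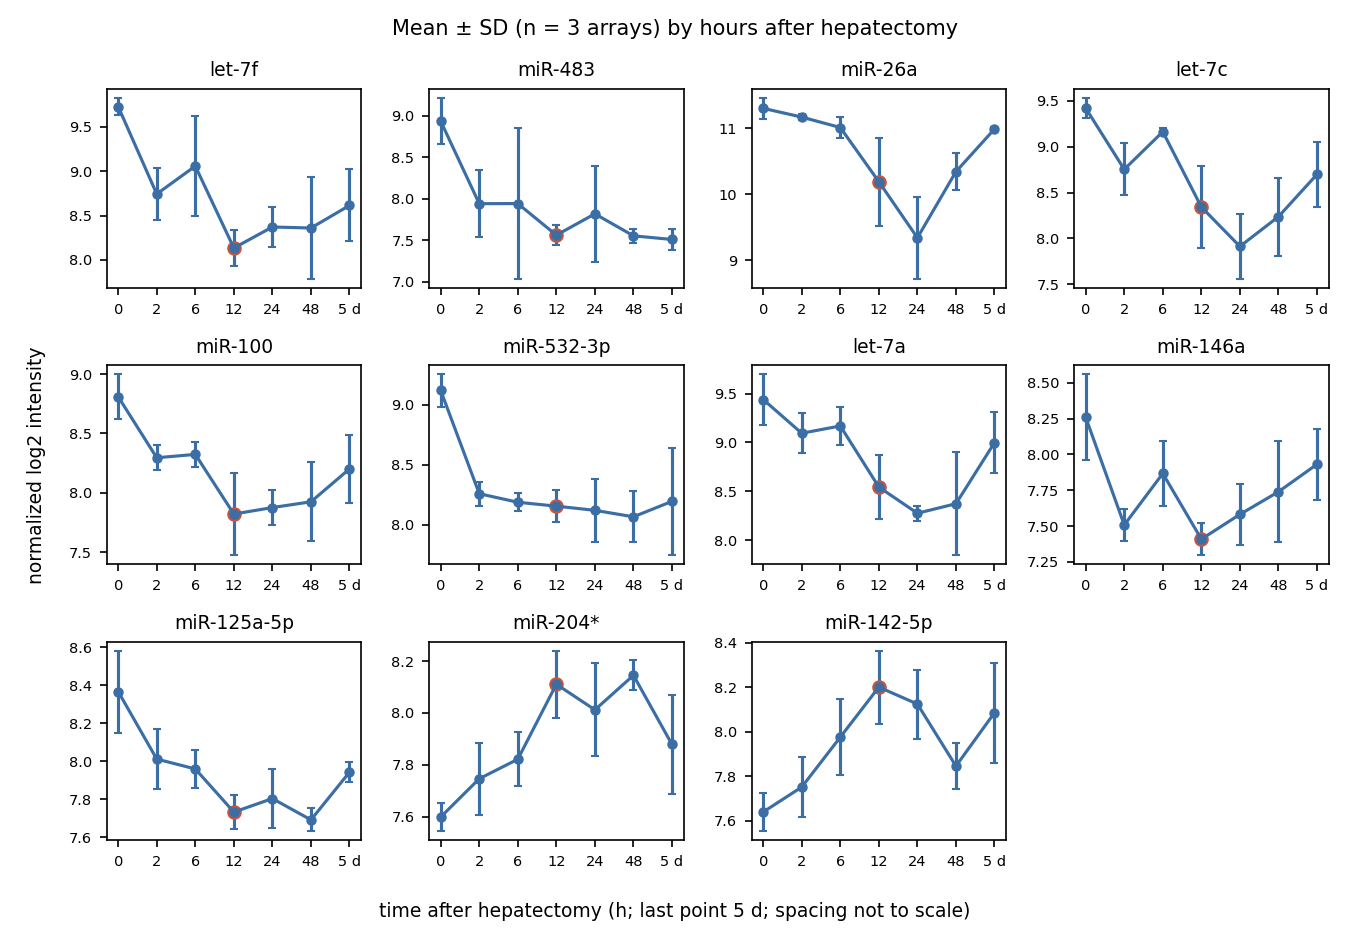
Mean normalized log2 intensity ± SD (3 arrays) of the 11 miRNAs by time after hepatectomy, from 0 h to 5 d, with the 12 h point ringed in red and a separate vertical scale in each panel. miR-26a goes on falling in mean from 10.19 at 12 h to 9.34 at 24 h, while miR-532-3p lies between 8.07 and 8.26 at every time after 0 h.

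To place 12 h in the time course, it was set against 6 and 24 h, in comparisons that share the 12 h arrays. Against 6 h, 0 names passed (limma), 10 (2.58%) had an unadjusted p under 0.05, and 8 passed with array weights. The groups did not overlap for 25 names (6.44%), 7 higher (1.80%) and 18 lower (4.64%). The smallest p values were those of let-7c at -0.82 (SE 0.24) and let-7f at -0.92 (SE 0.28), both with adjusted p = 0.703. let-7c had a mean of 9.16 at 6 h (SD 0.04, n = 3) and of 8.34 at 12 h (SD 0.45). miR-26a was at 11.01 ± 0.16 at 6 h, and its difference was -0.82 (adjusted p = 0.966, limma).

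Against 24 h, 0 names passed (limma) and 10 (2.58%) had an unadjusted p under 0.05. The groups did not overlap for 41 names (10.6%), 14 higher (3.61%) and 27 lower (6.96%). let-7d, miR-26a and miR-125b-5p had the smallest p values and were higher at 12 h than at 24 h by 0.76, 0.85 and 0.83 (all adjusted p = 0.892, limma). miR-532-3p differed from 6 h by -0.03 (95% interval -0.42 to 0.36) and from 24 h by 0.03 (-0.35 to 0.42). miR-483 had SDs of 0.91 at 6 h and 0.58 at 24 h, against 0.12 at 12 h, which limits what its neighbours in time can show.

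Sham laparotomy, in which the abdomen is opened and the liver left whole, was measured at 12 h on another chip layout, so operation and layout cannot be told apart and no test was made. In the authors' deposited processed log2 values, miR-26a was at 11.75, 12.05 and 11.05 in sham liver, at 10.69, 8.92 and 9.35 at 12 h after hepatectomy and at 12.00, 11.28 and 12.39 at 0 h. Its sham arrays lay above every 12 h hepatectomy array. miR-146a (6.75, 6.08 and 6.45 in sham, 5.20, 4.67 and 4.85 after hepatectomy) and miR-532-3p (9.07, 7.87 and 7.73 against 6.14, 7.20 and 7.28) were also higher on every sham array. So were uncalled names such as miR-16, miR-192 and miR-23a, so this is not particular to the calls. The share of all names without overlap between sham and hepatectomy was not counted.

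let-7c was at 6.84, 8.48 and 7.95 in sham liver against 7.87, 6.71 and 6.71 at 12 h and 9.25, 9.36 and 9.56 at 0 h. Its sham arrays overlapped the 12 h hepatectomy arrays and lay below those at 0 h. miR-100 was at 4.66, 6.72 and 5.67 in sham liver, within the 12 h hepatectomy range of 4.36 to 6.80 and below the 0 h range of 7.64 to 8.07. miR-142-5p was at 5.63, 5.95 and 6.92 in sham liver, below its 12 h hepatectomy values of 7.05, 7.54 and 7.04. The sham arrays of let-7a, let-7f, miR-125a-5p and miR-483 overlapped the 12 h hepatectomy arrays.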

How the data were processed

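Per the labels' protocols, small RNA was kept during isolation (miRNeasy columns), and each bound miRNA primed the addition of biotin-labelled nucleotides on a microfluidic febit chip with 1 colour. The deposited raw spot values are intensity on a linear scale. The authors also deposited background-subtracted median intensity per miRNA and a processed log2 value, both for 323 names. For image software, normalization of the processed values and genome build: not given in the sources used here. Raw spots were corrected with normexp (offset 50), log2 transformed, quantile normalized between arrays and averaged over the 15 spots of a name (0.839% missing on the 6 arrays). limma 3.58.1 (R 4.3.3, lmFit and eBayes) was fitted over the 21 hepatectomy arrays (14 residual degrees of freedom), two-sided, with Benjamini-Hochberg adjustment over 388 names for each of 3 comparisons and a threshold of 0.05. It was tested on simulated data. The number of arrays limits precision, and the median standard error was 0.192. Named were all calls, the 10 largest rises and falls without overlap among names above the median level, 11 fixed miRNAs, members of lists, and relatives by seed or gene cluster of a called name. Members and lists were chosen with earlier results of these data known. Alternatives were other background corrections, scalings, spot summaries, covariates, blocks and left-out arrays.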

Additional observations from a re-analysis of the deposited data

How the results depend on the processing

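No called miRNA changed sign under the 15 alternative settings (13 for miR-204*, which has no authors' values). Leaving out 1 of the 6 arrays, or keeping only the brighter ones, could not change a sign, because the groups do not overlap for any call. The sizes moved: let-7c ranged from -2.29 to -0.47, miR-100 from -2.33 to -0.34 and miR-146a from -2.07 to -0.28. For miR-532-3p the range was -1.81 to -0.37, for let-7a -1.28 to -0.38 and for miR-125a-5p -1.14 to -0.15. That of miR-204* was 0.17 to 0.97. The count of calls moved too. Against 11 (2 higher, 9 lower), it was 7 with no background correction, 2 with the authors' background-subtracted medians, 6 when arrays were centred on the median and 6 when centred on the 75th percentile (no rise in any). It was 17 with the authors' processed values (1 higher, 16 lower), 28 with only the compared groups (12 and 16), 62 with array weights (27 and 35), again 62 once signal span was a covariate (37 and 25) and 27 with brightness as a block (7 and 20). With no normalization it was 0, with 50 at an unadjusted p under 0.05 and a median of all names of 0.45. It was 13 with the median of spots (0 and 13), 11 on the brighter arrays alone (0 and 11) and 14 with span taken over spots, an alternative chosen after seeing the data. Leaving out 1 array gave 1 to 17. All 11 calls were shared by the fits of only the compared groups, array weights, span and brightness. Except where the alternative itself has fewer arrays or names, the cause was not tested.

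Against 6 h the count was 8 with array weights and 0 otherwise, and against 24 h it was 0 throughout (limma). The difference in signal span was -0.20 with no background correction, also chosen after seeing the data, and -0.74 to -0.30 without 1 array.

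Whether the replicate numbers pair the arrays is not settled. Deviations of same-numbered 0 h and 12 h arrays correlated at 0.17, 0.33 and 0.08, and those of differently numbered arrays at -0.31 to 0.15. Replicate 3 at 0 h correlated better with replicate 1 at 12 h (0.15) than with its own number (0.08). With the number as a replicate block, 9 names passed, all among the 11, without let-7a and miR-204*.

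Differences near 0 changed sign. With span as a covariate, miR-21 was at 0.026, miR-122 at 0.20, miR-1 at -0.17, miR-192 at 0.039 and miR-194 at 0.32. With no normalization, miR-34a was at 0.17, miR-16 at -0.013, miR-17-5p at 0.15, miR-98 at 0.18, miR-675 at 0.37, miR-204 at 0.32 and miR-142-3p at 0.10. With the authors' background-subtracted medians, miR-221 was at -0.046 and miR-194 at 0.17. With 75th percentile centring, miR-221 was at -0.00404, miR-16 at -0.55, miR-1 at -0.014 and miR-532-5p at -0.00801. With the median of spots, miR-221 was at -0.020 and miR-16 at -0.12, and with the authors' processed values at -0.00922 and -0.75. miR-16 was also at -0.43 with median centring, -0.053 with array weights and -0.021 on the brighter arrays alone, and miR-204 was at 0.00924 with array weights. Without 1 array, miR-16 ranged from -0.10 to 0.23, miR-194 from -0.55 to 0.26, miR-675 from -0.12 to 0.029 and miR-204 from -0.11 to 0.053.

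Signal over background limited the dim names. Of 323 names with an authors' background-subtracted median, 224 were above 0 on all 6 arrays and 29 above 200.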
